A study of Oryza sativa Indica Group with 8 samples.

Results

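The loci described here are those whose transcript level in rice leaves was raised above control after salt shock in all 3 shock histories studied: a shock at both stages, at the reproductive stage alone and at the vegetative stage alone. A locus was selected by 3 conditions on CPM (counts per 1000000 reads, the count of a locus scaled by the total over all loci of its library). Its lowest value among the 6 shocked libraries had to reach 1.5 times the higher of the 2 control libraries, and its mean over the 6 shocked libraries had to reach 5 CPM. Loci were then excluded if the 4 libraries of the single-shock groups, or the 4 libraries shocked late, all stood 1.3 times above the other 4. Of 55986 annotated loci, 12367 had a shocked mean of at least 5 CPM, 16 met both level conditions, 2 were excluded because they were higher in the late-shocked libraries, none was excluded as a single-shock locus, and 14 remained.

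Salt in the root medium harms rice leaves first by lowering the water available to the plant and later by the build-up of sodium in the blades. Leaf cells answer with hormone signals, abscisic acid among them, that change the transcription of many genes, and a plant that has met the stress before can respond differently when it meets it again.

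The plants were the indica genotype BRS Ligeirinho, which the labels call sensitive to salt stress. Seedlings germinated for 7 days and then grew in washed sand in a greenhouse, watered with nutrient solution. Double-shock plants (labelled "Reprodutive and vegetative") were shocked at the vegetative V4 stage and again at the reproductive R0-R1 stage, reproductive-shock plants at R0-R1 alone, and vegetative-shock plants at V4 alone, while control plants had water and nutrient solution throughout. Each group had 2 libraries of leaf RNA. The sources used here give no salt dose, no shock length and no time of leaf collection, so collection age and shock history cannot be told apart. They also do not state whether 2 libraries of a group are from different plants or pots, and the p-values therefore reflect library-to-library spread alone, which may be technical. In leaf tissue, more cells of a type and more RNA per cell cannot be told apart.

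Libraries held 10464740 to 11727657 counted reads, and 3 reads, which is as many as an observed 0 still allows, equalled 0.256 to 0.287 CPM (counting error only). The replicates of a group differed by more than counting noise in all 4 groups (chi-square per degree of freedom 12.4 to 14.4). The tables name loci by identifiers of the LOC_Os form, whose first number is the chromosome and whose second orders the loci along it. No gene names stand beside these identifiers, and the RefSeq gene table of assembly ASM3414082v1 matched 0 of the 55986 identifiers, so no gene name, function, coordinate or sequence is given, and leaf marker genes could not be looked up.

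**Figure D1:**
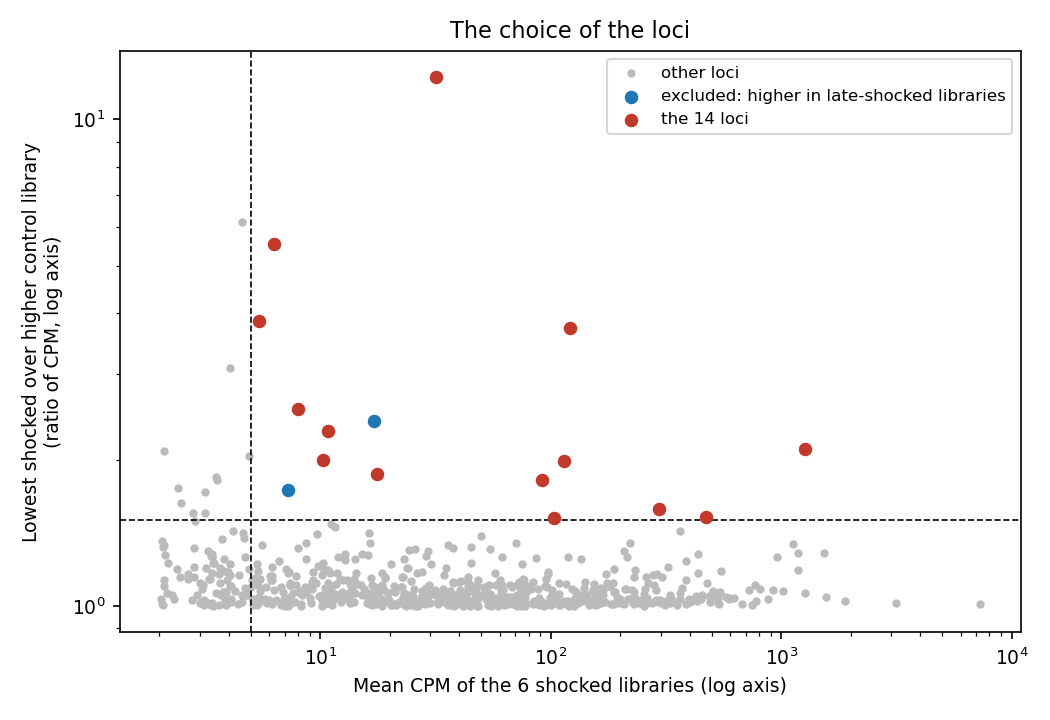
Mean CPM of the 6 shocked libraries (x axis, log scale) against the ratio of the lowest shocked library to the higher control library (y axis, log scale) for 703 loci with a shocked mean of at least 2 CPM and a ratio above 1; dashed lines mark 5 CPM and a ratio of 1.5. The 14 loci (red) spread from 5.40 to 1266 CPM, most of them in the lower part of the ratio range, and the 2 excluded loci are blue.

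The ratio that chose the loci was unevenly spread. LOC_Os09g33850 on chromosome 9 stood far above the rest, its lowest shocked library at 12.2 times the higher control library, followed by LOC_Os10g42770 on chromosome 10 at 5.55 times. The locus just inside the threshold was LOC_Os12g36670 (chromosome 12) at 1.52 times, and the one just outside was LOC_Os08g03610 (chromosome 8) at 1.47 times. On the level condition, LOC_Os05g36310 (chromosome 5) was just inside with a shocked mean of 5.40 CPM and LOC_Os12g02720 (chromosome 12) just outside with 4.92 CPM. Among the 12367 loci with a shocked mean of at least 5 CPM, 607 (4.91%) had every shocked library above both control libraries by any margin. The selection leaned on the control libraries, since 45 loci met the rule without control replicate 1 and 71 without control replicate 2, against 14 with both. All 14 were among those 45 and among those 71, which was fixed in advance, since leaving out a control library can only ease the rule for them.

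The 14 loci ranged widely in abundance. Together they took 0.242% and 0.294% of all counts in double-shock libraries, 0.246% and 0.278% in reproductive-shock libraries, 0.236% and 0.234% in vegetative-shock libraries, and 0.102% and 0.112% in control libraries. The locus with the highest level in every library was LOC_Os04g58710 (chromosome 4), number 94 of all loci by mean CPM. It stood at 1115 and 1367 CPM in double-shock libraries, 1178 and 1489 CPM in reproductive-shock libraries, 1283 and 1163 CPM in vegetative-shock libraries, and 436.7 and 531.2 CPM in control libraries. No shocked group of this locus was set apart from another, and the 6 shocked libraries together differed by no more than 1.34-fold.

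**Figure D2:**
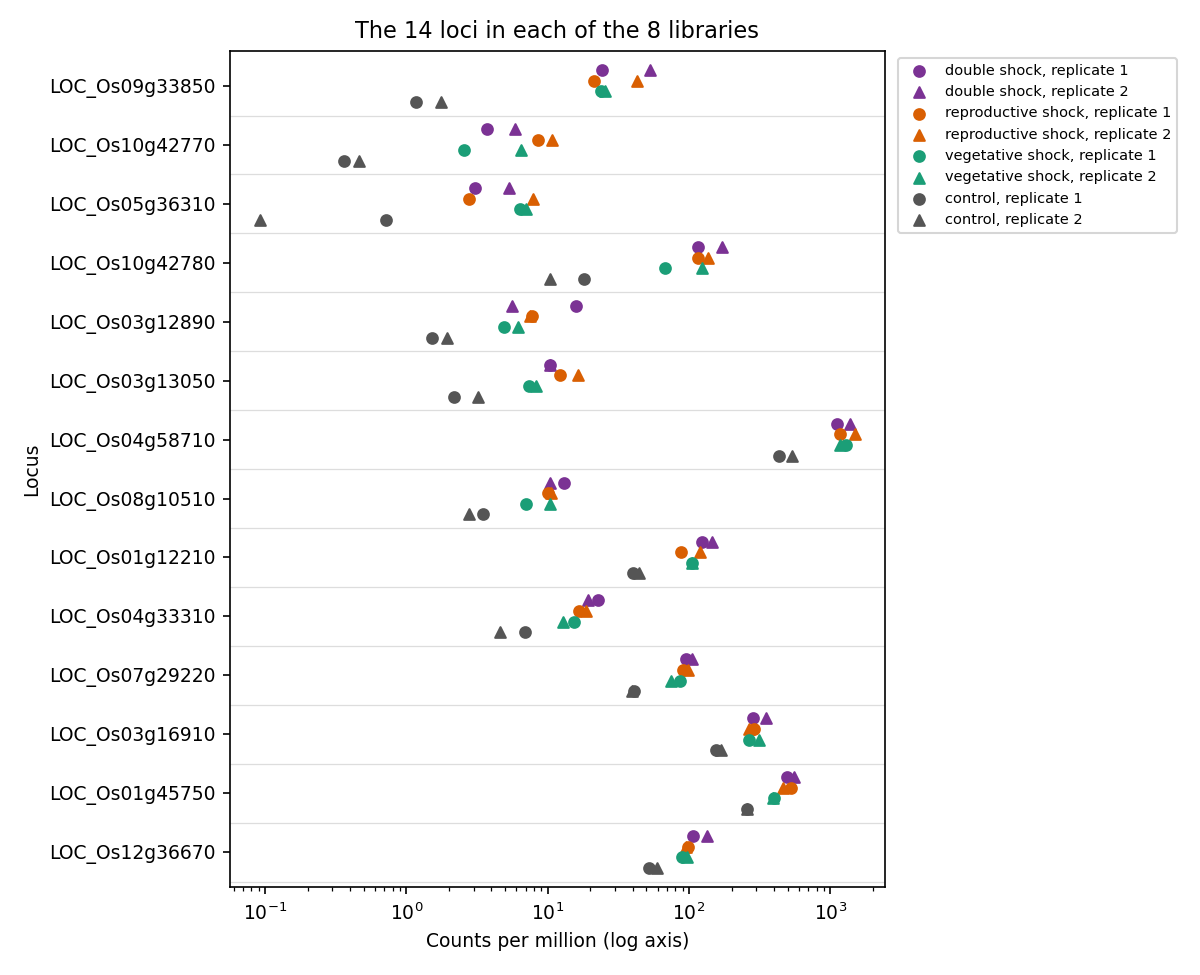
CPM (x axis, log scale) of each of the 14 loci (rows, ordered by the ratio of the lowest shocked to the higher control library) in the 8 libraries; circles are replicate 1 and triangles replicate 2. The control libraries lie left of the 6 shocked libraries in each row, as the selection requires, and shocked groups overlap in many rows.

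The largest rises were in 4 loci, 3 of them with few reads in control. LOC_Os09g33850 stood at 24.3 and 53.4 CPM in double-shock libraries, 21.4 and 42.9 CPM in reproductive-shock libraries, 23.9 and 25.3 CPM in vegetative-shock libraries, and 1.17 and 1.75 CPM in control libraries. Its replicates lay further apart in double-shock and in reproductive-shock plants than the means of the shocked groups did, and replicate 2 was the higher in both. Pooled over libraries it had 2145 reads in shocked and 32 in control plants, a ratio of 22.0 with a 95% exact binomial interval of 15.5 to 32.3 that covers counting error only. LOC_Os05g36310 stood at 3.06 and 5.29 CPM in double-shock libraries, 2.77 and 7.89 CPM in reproductive-shock libraries, 6.35 and 7.04 CPM in vegetative-shock libraries, and 0.721 and 0.0923 CPM in control libraries, where it had 8 reads and 1 read. Its pooled ratio was 13.2, with an interval of 6.86 to 29.0. It was the one locus with a higher mean in vegetative-shock plants than in both other shocked groups.

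The other strongly raised loci were neighbours on chromosome 10. LOC_Os10g42780 stood at 116.0 and 171.9 CPM in double-shock libraries, 115.1 and 136.4 CPM in reproductive-shock libraries, 67.1 and 123.1 CPM in vegetative-shock libraries, and 18.0 and 10.4 CPM in control libraries. LOC_Os10g42770, the locus next to it, stood at 3.73 and 5.88 CPM in double-shock libraries, 8.49 and 10.7 CPM in reproductive-shock libraries, 2.56 and 6.51 CPM in vegetative-shock libraries, and 0.360 and 0.461 CPM in control libraries. Both were high in every shocked group, but of the pair only LOC_Os10g42770 had its 2 highest libraries in the reproductive-shock group. Its pooled ratio over control was 15.5 (interval 8.11 to 34.2), from 9 control reads, and that of LOC_Os10g42780 was 8.59 (interval 7.67 to 9.65), from 313.

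Smaller rises were found in 4 other loci of low abundance. LOC_Os03g13050 (chromosome 3) stood at 10.4 and 10.4 CPM in double-shock libraries, 12.1 and 16.4 CPM in reproductive-shock libraries, 7.39 and 8.27 CPM in vegetative-shock libraries, and 2.16 and 3.23 CPM in control libraries. The groups of this locus did not overlap, with the reproductive-shock libraries highest, the double-shock libraries next and the vegetative-shock libraries lowest of the shocked. LOC_Os03g12890, on the same chromosome with 16 loci between, stood at 16.0 and 5.63 CPM in double-shock libraries, 7.71 and 7.53 CPM in reproductive-shock libraries, 4.93 and 6.16 CPM in vegetative-shock libraries, and 1.53 and 1.94 CPM in control libraries. Its highest library, double-shock replicate 1, was far above the other double-shock library, which lay among the vegetative-shock values.

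LOC_Os08g10510 (chromosome 8) stood at 13.0 and 10.4 CPM in double-shock libraries, 10.1 and 10.6 CPM in reproductive-shock libraries, 7.02 and 10.4 CPM in vegetative-shock libraries, and 3.51 and 2.77 CPM in control libraries. LOC_Os04g33310 (chromosome 4) stood at 22.6 and 19.2 CPM in double-shock libraries, 16.7 and 18.8 CPM in reproductive-shock libraries, 15.5 and 12.9 CPM in vegetative-shock libraries, and 6.93 and 4.61 CPM in control libraries. On this plain scale the groups of LOC_Os04g33310 did not overlap, with double shock highest, then reproductive shock, vegetative shock and control. On CPM scaled by TMM factors, which correct library totals for a few abundant loci, its double-shock and reproductive-shock libraries overlapped.

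Among the abundant loci were some of the smallest rises. LOC_Os01g45750 (chromosome 1) stood at 491.4 and 552.8 CPM in double-shock libraries, 527.6 and 460.2 CPM in reproductive-shock libraries, 398.8 and 393.2 CPM in vegetative-shock libraries, and 258.3 and 256.0 CPM in control libraries. Its vegetative-shock libraries lay apart, between control and the late-shocked plants. LOC_Os03g16910 (chromosome 3) stood at 281.3 and 348.7 CPM in double-shock libraries, 288.2 and 265.9 CPM in reproductive-shock libraries, 266.1 and 311.4 CPM in vegetative-shock libraries, and 154.5 and 167.7 CPM in control libraries. Its 6 shocked libraries spanned 1.31-fold, the narrowest range of the 14 loci, whereas LOC_Os10g42770 spanned the widest, 4.17-fold. The median of this span was 1.80-fold over the 14 loci and 1.43-fold over the loci with a shocked mean of at least 5 CPM.

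The remaining 3 loci lay near 100 CPM in shocked leaves. LOC_Os01g12210 (chromosome 1) stood at 122.7 and 144.7 CPM in double-shock libraries, 88.2 and 119.6 CPM in reproductive-shock libraries, 104.9 and 104.4 CPM in vegetative-shock libraries, and 40.1 and 44.4 CPM in control libraries. LOC_Os07g29220 (chromosome 7) stood at 95.3 and 105.8 CPM in double-shock libraries, 90.5 and 99.0 CPM in reproductive-shock libraries, 86.3 and 74.2 CPM in vegetative-shock libraries, and 40.9 and 39.2 CPM in control libraries. LOC_Os12g36670 stood at 107.0 and 135.2 CPM in double-shock libraries, 97.9 and 94.7 CPM in reproductive-shock libraries, 89.8 and 97.2 CPM in vegetative-shock libraries, and 52.4 and 59.2 CPM in control libraries. In LOC_Os12g36670 the double-shock libraries were the 2 highest, on plain and on TMM-scaled CPM.

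Fold changes against control came from an edgeR fit of all 18251 loci with enough reads, in which all 14 were tested. They describe the loci and test nothing, since the same contrast selected them, and all 3 comparisons share the control libraries. The median log2 fold change over control was 1.92 in double-shock plants, 1.77 in reproductive-shock plants and 1.40 in vegetative-shock plants. Over all loci tested it was within 0.01 of 0 in each of these comparisons. The smallest rise was that of LOC_Os01g45750 in vegetative-shock plants (log2 fold change 0.62, SE 0.13), and the largest that of LOC_Os09g33850 in double-shock plants (4.75, SE 0.54). A rise of at least 2-fold was seen in 13 of the 14 loci in double-shock plants, in 12 in reproductive-shock plants and in 11 in vegetative-shock plants.

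**Figure D3:**
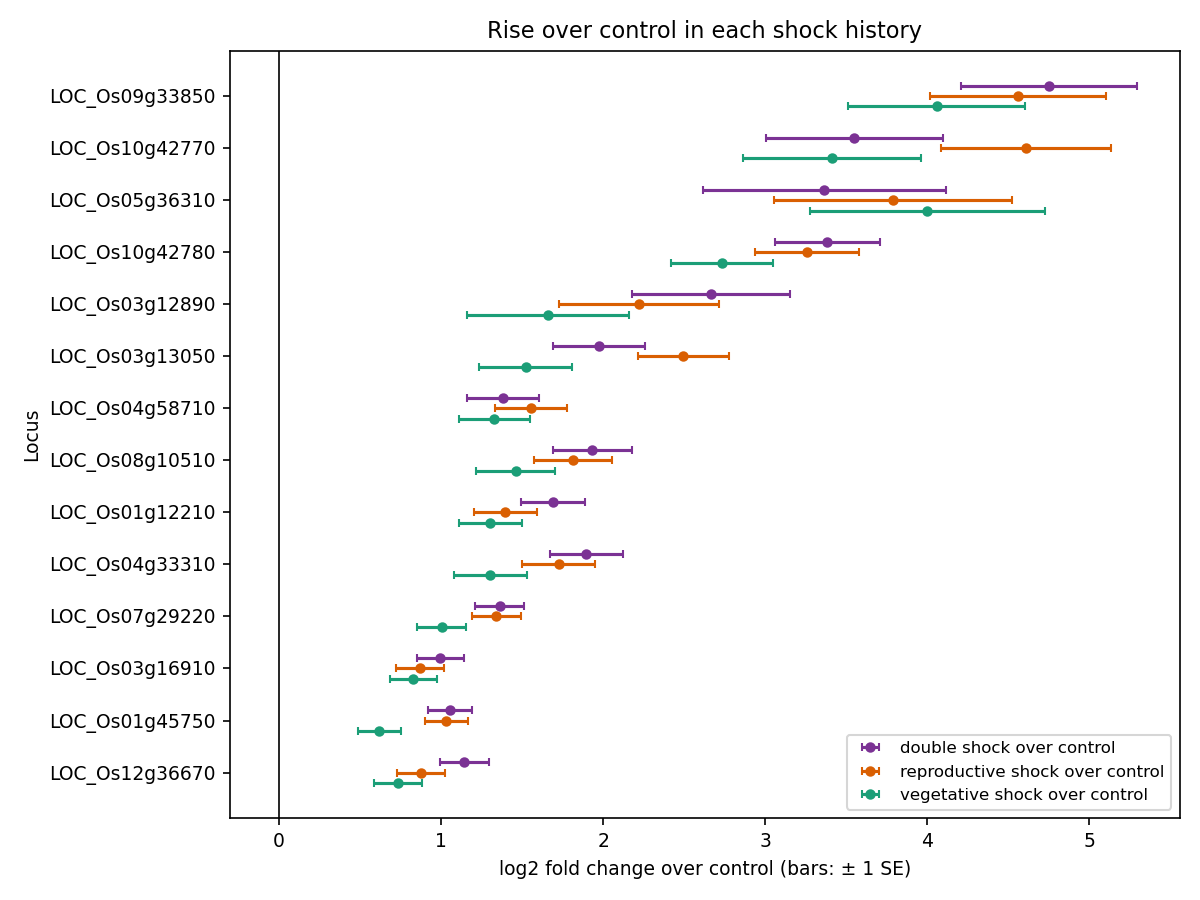
log2 fold change over control (x axis; bars are 1 SE of the edgeR fit) of the 14 loci in double-shock, reproductive-shock and vegetative-shock plants, in the row order of the plot of levels. Rises run from 0.62 to 4.75, and the vegetative-shock point is the lowest of the 3 in 13 rows, all but LOC_Os05g36310 (in 11 rows on plain CPM).

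At an adjusted p below 0.05 (edgeR quasi-likelihood test, Benjamini-Hochberg over all loci tested) 9 of the 14 loci were called higher in double-shock plants, where 0.0712% of all loci tested were called higher. In reproductive-shock plants 12 of 14 were called, against 0.225% of all loci, and in vegetative-shock plants 1 of 14, LOC_Os10g42780, against 0.00548%. Because the selection used these contrasts, nothing is read from these counts. They also moved with single libraries: without control replicate 2 the calls were 0 of 14 in double-shock plants and 1 of 14 in reproductive-shock plants, and without control replicate 1 they were 2 and 3. In double-shock plants, dropping double-shock replicate 1 left 2 calls, and dropping double-shock replicate 2 or any 1 reproductive-shock library left 5. In reproductive-shock plants, leaving out either library of that group left 0. In vegetative-shock plants the 1 call was lost without control replicate 2 or without any 1 vegetative-shock or reproductive-shock library, and dropping any 1 double-shock library raised the count to 2. DESeq2 called 14, 14 and 13 of the loci in double-shock, reproductive-shock and vegetative-shock plants, where it called 0.445%, 1.18% and 0.175% of all loci higher.

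The double-shock rise of each locus was set beside the rises after the single shocks. In 10 of the 14 loci the double-shock log2 fold change was above the larger of the single-shock ones, by a median of 0.12 over all 14. The difference ran from -1.06 in LOC_Os10g42770 to 0.44 in LOC_Os03g12890. In all 14 it was below the sum of the single-shock log2 fold changes, with a median of -1.28 relative to that sum. LOC_Os12g36670 came nearest to the sum, with a double-shock rise of 1.14 against 0.88 and 0.73 after the single shocks. LOC_Os09g33850 rose by 4.75 after both shocks, 4.56 after the reproductive shock and 4.06 after the vegetative shock, on the log2 scale. The control libraries enter all 3 terms and the selection fixed their direction, so this is a description with no test.

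The comparison of double-shock with reproductive-shock plants asks whether an earlier shock changes the level of these transcripts after a later one. The control libraries enter it through the estimate of spread, not through the fold change. None of the 14 loci was called by edgeR or by DESeq2, and the percentages of all loci called were 0% and 0.644%. DESeq2 gave no adjusted p for LOC_Os03g12890, LOC_Os05g36310 and LOC_Os10g42770, so its count covers the other loci. Of the 14 loci, 10 had a higher fitted level in double-shock plants, as had 51.6% of all loci tested, and the median log2 fold change was 0.12 over the 14 loci and 0.01 over all loci tested. The count of 10 fell to 5 without double-shock replicate 2 and to 7 without reproductive-shock replicate 1. At an unadjusted p below 0.05 no member was higher (3.38% of all loci) and 1 was lower (4.67% of all loci). These counts were 1 and 0 without double-shock replicate 1 or reproductive-shock replicate 2, 1 and 1 without double-shock replicate 2, and 0 and 2 without reproductive-shock replicate 1 or either control library. With all libraries, that lower locus was LOC_Os10g42770 (log2 fold change -1.06, SE 0.38, 95% interval -1.92 to -0.19, edgeR adjusted p = 0.56), with both double-shock libraries below both reproductive-shock libraries. On TMM-scaled CPM both double-shock libraries were above both reproductive-shock libraries in 1 of the 14 loci and below them in 2, against 20.9% and 23.6% of the loci at 5 CPM or more. On plain CPM the counts were 3 and 2, against 27% and 15.7%. In the upward direction the smallest p belonged to LOC_Os12g36670 (log2 fold change 0.27, SE 0.15, 95% interval -0.07 to 0.60, edgeR adjusted p = 0.68), whose fold change was 0.40 without double-shock replicate 1 and 0.12 without double-shock replicate 2. The smallest SE was that of LOC_Os01g45750, with a 95% interval of -0.28 to 0.32, followed by LOC_Os03g16910, with an interval of -0.21 to 0.46. The widest interval, -1.65 to 0.80, was that of LOC_Os05g36310.

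**Figure D4:**
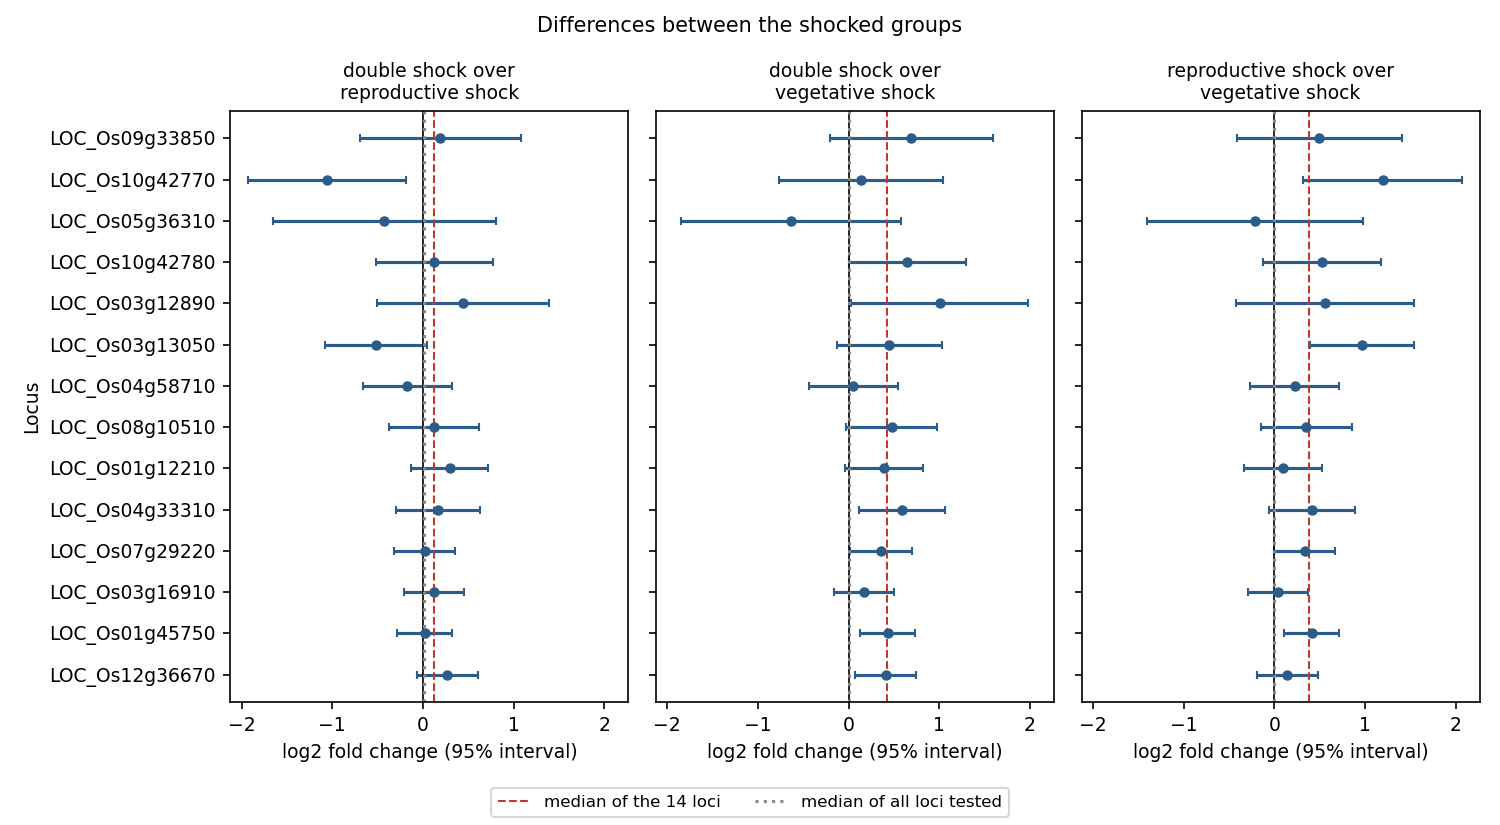
log2 fold change with its 95% interval (x axis) of each of the 14 loci in the 3 comparisons between shocked groups; the dashed line is the median of the 14 loci and the dotted line that of all loci tested. Most points in the middle and right panels lie right of 0, around medians of 0.42 and 0.38, whereas the left panel centres on 0.12.

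Double-shock plants were then compared with vegetative-shock plants, which asks what a late shock adds in plants that met salt before. None of the 14 loci was called by edgeR, where 0.0712% of all loci were called, nor by DESeq2, where 0.85% were. The selection used these same values. It dropped loci whose late-shocked libraries all stood apart and loci with a low vegetative-shock library. A low count of calls was thus favoured by the rule, and nothing is read from it. In sign, 13 of the 14 loci were higher in double-shock plants, against 50.5% of all loci tested. The median log2 fold change was 0.42 over the 14 loci and 0.00 over all loci tested. Without double-shock replicate 2 the count was 11 of 14 and the median 0.30. The 14 loci were measured in the same libraries, so they are not independent observations. The SD between libraries of a group in the median log2 level of the 14 loci was 0.37. With CPM scaled by TMM factors, both double-shock libraries were above both vegetative-shock libraries in 9 of the 14 loci and below them in 1, against 18.9% and 20.4% of the loci at 5 CPM or more. On plain CPM the counts were 7 and 1, against 14% and 23.2% of those loci. At an unadjusted p below 0.05, 5 of the 14 were higher, against 4.36% of all loci, and none was lower, against 4.3%. The count of 5 was 2 without vegetative-shock replicate 2, 3 without vegetative-shock replicate 1, 3 without double-shock replicate 2, and 2 with the multiply aligned share as a covariate. These were LOC_Os01g45750, LOC_Os03g12890, LOC_Os04g33310, LOC_Os07g29220 and LOC_Os12g36670, named after their values were seen. LOC_Os01g45750 had the smallest p (log2 fold change 0.43, SE 0.13, 95% interval 0.13 to 0.74, edgeR adjusted p = 0.42). LOC_Os05g36310 alone pointed down (log2 fold change -0.64, SE 0.54, 95% interval -1.85 to 0.58, edgeR adjusted p = 0.79), with a fold change of -0.33 without double-shock replicate 1 and -1.06 without double-shock replicate 2.

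Reproductive-shock plants against vegetative-shock plants compare a late with an early single shock. Again no member was called by edgeR, where 0.0548% of all loci were called, or by DESeq2, where 0.534% were. The selection favoured a low count of calls here too, in the same way, and nothing is read from it. The reproductive-shock level was higher in 13 of the 14 loci (11 on plain CPM), against 48.7% of all loci tested, and the median log2 fold change was 0.38 over the 14 loci and -0.01 over all loci tested. Without reproductive-shock replicate 2 the count was 10 of 14 and the median 0.23. Both reproductive-shock libraries were above both vegetative-shock libraries in 9 of the 14 loci and below in 0, on TMM-scaled CPM, against 20% and 20.2% of the loci at 5 CPM or more, and on plain CPM the counts were 6 and 0, against 10.9% and 29.8%. LOC_Os03g13050 had the smallest p (log2 fold change 0.97, SE 0.25, 95% interval 0.40 to 1.55, edgeR adjusted p = 0.42). LOC_Os10g42770 (1.19, SE 0.38) and LOC_Os01g45750 (0.41, SE 0.13) were the others with an unadjusted p below 0.05, so 3 of 14 were higher by that mark against 4.48% of all loci, and 0 were lower against 3.15%. Without reproductive-shock replicate 2 the count of 3 became 1. LOC_Os05g36310 was the exception in sign (log2 fold change -0.21, SE 0.53, edgeR adjusted p = 0.95), and its sign turned without reproductive-shock replicate 1 (log2 fold change 0.39).

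The last 2 comparisons share the vegetative-shock libraries, so the lower vegetative-shock level is 1 observation and not a repeated one. It held on either scaling: the vegetative-shock mean was the lowest of the 3 shocked groups in 13 of the 14 loci on TMM-scaled CPM and in 11 on plain CPM. Among the loci at 5 CPM or more, raised over control or not, the vegetative-shock group was lowest in 31.7% and 20.5% on those scales. Rises over control were also fewest in vegetative-shock plants among all loci tested. At an unadjusted p below 0.05 (edgeR quasi-likelihood test) 537 loci were higher there, against 857 in double-shock and 1278 in reproductive-shock plants. Whether the 14 loci differ in this from other raised loci was not tested. The double-shock mean was the highest in 10 of the 14 loci on both scales, against 33.6% and 33.1% of those loci, but without double-shock replicate 2 the fitted double-shock level was above the reproductive-shock level in only 5. The rule bears on these comparisons through its exclusions, which removed 2 loci with still lower vegetative-shock levels. The counts with these 2 loci kept are given below. The rule also bears on them through its condition on the lowest shocked library, which left out loci with a vegetative-shock library too low against control. The lowest shocked library was vegetative-shock replicate 1 in 6 of the 14 loci and vegetative-shock replicate 2 in 3. Keeping the 2 excluded loci does not undo the effect of that condition. A single test of any difference among the 3 shocked groups called none of the 14 loci with edgeR, where 0.0767% of all loci were called, and none with DESeq2, where 1.02% were. This count is shaped by the same selection. At an unadjusted p below 0.05 the test gave 3 of the 14 against 8.93% of all loci, namely LOC_Os01g45750, LOC_Os03g13050 and LOC_Os10g42770. That count was 2 without reproductive-shock replicate 2, and 5 without double-shock replicate 1, vegetative-shock replicate 1 or either control library.

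The excluded loci were LOC_Os06g04920 (chromosome 6) and LOC_Os11g19240 (chromosome 11), both raised in every shocked library but much more after a late shock. LOC_Os06g04920 stood at 58.4 and 22.1 CPM in double-shock libraries, 8.92 and 9.77 CPM in reproductive-shock libraries, 0.664 and 2.20 CPM in vegetative-shock libraries, and 0.0901 and 0.277 CPM in control libraries, where it had 1 read and 3 reads. Its pooled ratio was 91.5, with an interval of 35.6 to 336.3. LOC_Os11g19240 stood at 8.03 and 8.27 CPM in double-shock libraries, 8.58 and 11.4 CPM in reproductive-shock libraries, 3.03 and 3.96 CPM in vegetative-shock libraries, and 0.450 and 1.75 CPM in control libraries. Had they been kept, 1 of 16 loci, LOC_Os06g04920, would have been called in double-shock against vegetative-shock plants (log2 fold change 4.84, SE 0.57, edgeR adjusted p = 0.038), and 0 of 16 in each of the other comparisons between shocked groups. Of the 14 loci kept, LOC_Os03g13050 came nearest to the late-shock exclusion, its lowest late-shocked library at 1.26 times the highest of the other 4. Without vegetative-shock replicate 2 the exclusions would have taken 4 of the 14: LOC_Os03g13050, LOC_Os08g10510, LOC_Os10g42770 and LOC_Os10g42780.

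The loci were spread over 9 of the 12 chromosomes, with 3 on chromosome 3, 2 each on chromosomes 1, 4 and 10, 1 each on chromosomes 5, 7, 8, 9 and 12, and 0 on chromosomes 2, 6 and 11. LOC_Os10g42770 and LOC_Os10g42780 were adjacent in the order of identifiers, and the loci on either side of the pair were not raised. LOC_Os10g42760 averaged 3.41 CPM in shocked and 3.83 CPM in control libraries, and LOC_Os10g42790 averaged 2.85 CPM in shocked and 3.41 CPM in control libraries. The reads of LOC_Os10g42770 equalled 3.21% and 3.42% of those of LOC_Os10g42780 in double-shock libraries, 7.38% and 7.82% in reproductive-shock libraries, 3.81% and 5.29% in vegetative-shock libraries, and 2% and 4.42% in control libraries, the last from 4 reads and 5 reads. The share was thus highest in both reproductive-shock libraries. No source used here gives the strand setting or how overlapping loci were counted, so reads shared between neighbours or near-identical copies could not be separated.

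A second neighbourhood stood out on chromosome 5, chosen after its values were seen. LOC_Os05g36320, next to LOC_Os05g36310, stood at 3.82 and 4.52 CPM in double-shock libraries, 2.77 and 4.93 CPM in reproductive-shock libraries, 4.55 and 3.69 CPM in vegetative-shock libraries, and 0.901 and 0.461 CPM in control libraries. Its lowest shocked library was 3.08 times the higher control library, and only its shocked mean of 4.05 CPM kept it from being selected. Of the 15 other adjacent loci with a shocked mean of at least 1 CPM that were not themselves among the 14, counting this one, 1 reached a ratio of 1.5. Their median log2 ratio of shocked to control means was 0.15, with 12 of 15 above 0, and no share of all loci was taken at that level. Among those at 5 CPM or more it was 8 of 9, with a median of 0.13, where 44.0% of all loci at that level were above 0 and the median was -0.03. Of the 8, LOC_Os01g12220 (0.0007) and LOC_Os09g33860 (0.005) were near 0. Only 2 of the 9 had every shocked library above both control libraries. The largest change among the 9 was downward, -0.99 in LOC_Os08g10500.

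**Figure D5:**
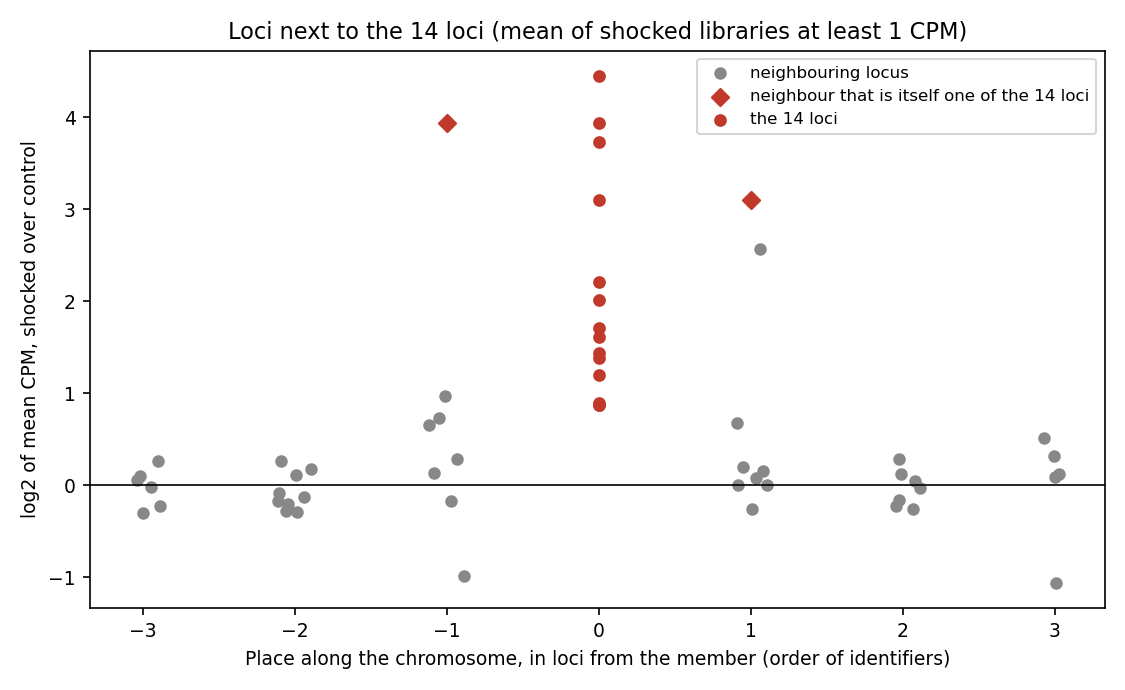
log2 ratio of mean CPM, shocked over control (y axis), for the 14 loci (place 0) and for loci up to 3 places away in the order of identifiers (x axis), shown where the shocked mean is at least 1 CPM; points at a place are spread sideways for sight. The chromosome 10 pair is drawn as diamonds, and of the neighbours that are not among the 14 loci LOC_Os05g36320 is highest, at 2.57, and LOC_Os03g16950 lowest, at -1.06.

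The libraries did not contribute evenly. Double-shock replicate 2 was the highest of the 6 shocked libraries in 7 of the 14 loci, reproductive-shock replicate 2 in 4 and double-shock replicate 1 in 3, while neither vegetative-shock library was highest in any. Vegetative-shock replicate 1 was the lowest in 6, vegetative-shock replicate 2 and reproductive-shock replicate 1 in 3 each, and double-shock replicate 1 and reproductive-shock replicate 2 in 1 each. The share of multiply aligned reads was 13.5% to 13.8% in double-shock replicate 1, reproductive-shock replicate 2 and control replicate 1, and 9.32% to 9.99% in the other 5 libraries. Within the 3 libraries of high share the 14 loci had a median ratio of shocked to control means of 3.19, with a range of 1.77 to 28.7. Within the 5 of low share the median was 3.05, with a range of 1.77 to 58.1. The rule fixed that each locus was higher in shocked libraries within both kinds. Single loci differed more than the medians: the ratio in the high-share and the low-share libraries was 7.67 and 3.15 for LOC_Os03g12890, 6.20 and 2.96 for LOC_Os03g13050, and 7.60 and 58.1 for LOC_Os05g36310, whose low-share control library had 1 read. The part of the multiply aligned share in the rises was not tested.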

How the data were processed

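For each of the 8 leaf libraries the authors deposited 1 table of unnormalised read counts by locus. Per the labels' protocols, Trizol-extracted RNA was made into Illumina TruSeq V2 libraries. The submitters' processing notes name STAR 2.7 and HTSeq 0.11.1, besides FastQC 0.11.7, Trimmomatic and edgeR 3.8, with no settings listed. Genome build, annotation and strand setting are not given in the sources. The 5 summary lines of each table (14.97% to 19.2% of reads) were left out.

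Groups came from the sample titles. CPM in the selection used the plain library total. Loci kept by filterByExpr (18251) were fitted with edgeR 4.0.16 in R 4.3.3: TMM factors, group as the only term, 4 residual and 4.77 prior degrees of freedom, two-sided quasi-likelihood F tests, Benjamini-Hochberg adjustment over all loci, calls below 0.05. SE is the log2 fold change over the square root of F, and 95% intervals use the t distribution of the fit. The procedure was also run on simulated data, in which the set changes were larger than most differences between shocked groups here. That run does not show whether differences of the smaller size would be called. DESeq2 1.42.0, other factors, filters and tests, and leaving out each library were alternatives. Loci to describe in each comparison between shocked groups were those of smallest p in each direction, together with the 2 of largest ratio, the 2 most abundant, the narrowest and the widest in span, the adjacent pair and those nearest each threshold. The rest were named, after their values were seen, so that all 14 are accounted for. The members and lists were chosen with earlier results of these data known.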

Additional observations from a re-analysis of the deposited data

How the results depend on the processing

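The number of selected loci was 14, and it was 33 at a ratio of 1.3, 7 at a ratio of 2, 25 at a mean of 2 CPM, and 14 to 71 when any 1 library was left out. On TMM-scaled CPM it was 11, all among the 14. The 3 lost were LOC_Os01g45750, LOC_Os03g13050 and LOC_Os12g36670, all of them named above for a smallest p between shocked groups. Their membership thus depends on the scaling. Without the low-count filter, which gave 30913 loci and an infinite prior degree of freedom in place of 4.77, edgeR called 1 of the 14 in double-shock against reproductive-shock plants, 3 in double-shock against vegetative-shock plants, 2 in reproductive-shock against vegetative-shock plants and 5 for any difference among shocked groups, each against 0 with the filter. That fit called 1.62%, 2.28%, 1.44% and 3.37% of all loci. With the excluded loci kept, 1 was called in double-shock against vegetative-shock plants. Leaving out any 1 library gave 0 in all 4 of these comparisons, and the median log2 fold change of the 14 loci was then -0.04 to 0.26, 0.30 to 0.43 and 0.23 to 0.45 in the first 3. Against control, calls in double-shock plants were 14 without the filter (1.53% of all loci called higher), 14 by the likelihood ratio test (0.707%), 14 by DESeq2 (0.445%) and 0 to 9 without 1 library, against 9. In reproductive-shock plants they were 0 to 11 without 1 library, against 12. In vegetative-shock plants they were 14 without the filter (0.421%), 13 by the likelihood ratio test (0.214%), 13 by DESeq2 (0.175%), 0 with robust quasi-likelihood (0.00548%), 0 when the multiply aligned share was a covariate (0.00548%; median log2 fold change 1.52, against 1.40) and 0 to 2 without 1 library, against 1. The cause of these moves was not tested. Fits without 1 library leave a group with a single library, assumed to vary like the others. LOC_Os05g36310 turned to 0.39 in reproductive-shock against vegetative-shock plants without reproductive-shock replicate 1, the range without any 1 library being -1.23 to 0.39. The other alternatives moved none of the medians by more than the spread between libraries (SD 0.37). That is a loose bound, since the medians between shocked groups were themselves only 0.12, 0.42 and 0.38. With the multiply aligned share as a covariate, the median in reproductive-shock against vegetative-shock plants was 0.29, against 0.38.

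Replicate numbers were not taken as pairing libraries: across loci, the correlation between deviations of libraries with the same number was -0.15 to 0.32. With the replicate block, 0 of the 14 loci were called in each comparison between shocked groups, and 11, 12 and 3 in double-shock, reproductive-shock and vegetative-shock plants against control, where 0.148%, 0.236% and 0.0219% of all loci were called higher.

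Control depth limits the ratios of LOC_Os10g42770 and LOC_Os05g36310, with 9 pooled control reads each.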
